A study of Mus musculus with 4 samples.

Results

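Transcripts of the cytosolic translation factors were followed in naive CD4+ T cells and in the same cells after 3 h under iTreg conditions. The set held every gene whose name on the array began with Eif1, Eif2, Eif3, Eif4, Eif5, Eif6, Eef1 or Eef2, except Eif2s3y and names of pseudogenes. That rule gave 64 genes of 37004 gene names on the array, read by 133 probes. All 64 names are current RefSeq symbols. Of the 64, 63 were well above background on all 4 arrays, and 1, Eif2c5, was on none of them. Eif2c5 is an older type of Argonaute name that the spelling of the rule brought in, and it is listed by RefSeq as a non-coding RNA, so 63 genes were measured.

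The series used here holds 4 single-colour Agilent arrays. Naive T cells gave 1 array for each genotype, WT and Nr4a-TKO, and iTreg cultures at 3 h gave 1 more for each. Nr4a-TKO cells lack the nuclear receptors Nr4a1, Nr4a2 and Nr4a3 by design, from floxed Nr4a1 and Nr4a2 alleles combined with Nr4a3-/-, and the Cre driver is not given in the sources used here. The Nr4a-TKO marrow also carried the knock-in allele Foxp3-hCD2-hCD52, which is not named for the WT marrow. The mice were C57BL/6J and 6 to 8 weeks old. All naive T cells were Ly5.2+ CD4+ CD62L-high CD44-low Foxp3- cells sorted 6 weeks after T cell-depleted bone marrow was transferred into irradiated Rag2-/- recipients. Nr4a-TKO cells came from recipients that also received WT (Ly5.1) marrow in equal parts, while WT cells came from recipients of WT marrow alone, so genotype and kind of chimera cannot be told apart. For iTreg cells, naive T cells were cultured for 3 h on plate-bound anti-CD3 (2 µg/ml) with anti-CD28 (0.5 µg/ml), antibodies that block IFN-γ and IL-4, IL-2 (10 ng/ml) and TGF-β1, for which doses of 0.5 and 0.2 ng/ml are named and the one used here is not given. Whether cells of several recipients were pooled is not given in the sources used here.

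Translation begins when eIF2 carries the initiator tRNA to the small ribosomal subunit, eIF1, eIF1A and eIF3 hold that subunit open for scanning, and the cap-binding complex eIF4F (eIF4E, eIF4G and the helicase eIF4A) brings in the mRNA. eIF5 and eIF5B then complete start codon selection and the joining of the large subunit, eEF1 delivers aminoacyl-tRNA, and eEF2 moves the ribosome along. The main brakes are the 4E-BP proteins, which hold eIF4E, and the kinases that phosphorylate the alpha subunit of eIF2. Resting T cells are known for small size and low protein synthesis, and receptor stimulation is known to raise both within hours.

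Values are log2 signals relative to the 75th percentile of each array, called the log2 level here. Levels of different genes were read by different probes and were not set against each other as amounts of transcript. A gene was said to rise or fall only where its 2 arrays differed by more than 2-fold. With 1 array per group no difference could be tested, and no p-value is given. From probes printed on several spots, the SD of such a log2 difference was 0.06, or 0.3 where the log2 level was below 0, and this covers spots within the arrays and not the mice. Between probes of the same member, the median SD of a log2 difference was 0.23 for the change at 3 h in WT, 0.19 for that in Nr4a-TKO, 0.13 between genotypes in naive T and 0.10 between genotypes at 3 h. The same amount of total RNA, 100 ng, was labelled for every array, so a change in RNA per cell was not seen by these values.

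The labels were checked on the arrays as a whole. The T cell markers Cd3d, Cd3e, Cd3g and Cd4 were well above background on every array, 6 of 7 markers of naive T cells fell at 3 h in both genotypes, and 7 of 8 activation genes rose in both. The targeted genes did not follow the genotype labels throughout. Nr4a1 was higher on the arrays labelled Nr4a-TKO, by 1.29 in naive T and 0.50 at 3 h on the log2 scale, and both Nr4a2 probes were higher there at 3 h, by 1.38 and 1.41. The 3 Nr4a3 probes differed at 3 h by -1.97, -1.55 and 0.22. Whether these probes lie in the deleted parts was not analysed here. Genotypes are therefore named below as the arrays are labelled, and each direction between genotypes rests on the labels.

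Among the members that rose at 3 h in WT, 6 carried the letters CACGTG near their annotated start. This palindrome, the canonical E-box, is a sequence that factors of the Myc, Max and USF type are known to bind. It is shown here because it is a feature of the members that the choice of genes did not use. Each line below is the strand of the gene around 1 match, 5′ to 3′, with the E-box in capitals, from RefSeq windows of GRCm38.p6 that run from 250 bases before to 50 bases after a start.
Eif3a, chr19:60790654-60790683, minus strand, 22 bases after the start: ccgcgagggaatCACGTGgttccttccttt
Eif4a1, chr11:69672595-69672624, minus strand, 189 bases before the start: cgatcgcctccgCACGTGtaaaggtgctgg
Eif4e, chr3:138527028-138527057, plus strand, 228 bases before the start: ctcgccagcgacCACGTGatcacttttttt
Eif4e, chr3:138527192-138527221, plus strand, 64 bases before the start: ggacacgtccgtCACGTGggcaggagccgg
Eif4g1, chr16:20672661-20672690, plus strand, 54 bases before the start: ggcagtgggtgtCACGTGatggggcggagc
Eif4g1, chr16:20672730-20672759, plus strand, 15 bases after the start: ctctgcgccggtCACGTGgggcgctggctg
Eif4h, chr5:134639488-134639517, minus strand, 96 bases before the start: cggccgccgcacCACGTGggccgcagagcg
Eif5a, chr11:69920791-69920820, minus strand, 178 bases before a start: gcgctgcgcggcCACGTGaggtgggggagg
Eif5a, chr11:69921443-69921472, minus strand, 185 bases before another start: aaggggcggggtCACGTGtgtgcgtcatcc

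A window was given for 49 members, and 12 of them (24.5%) held the motif, beside 8.91% of 17491 protein-coding genes. It was in 6 of the 21 members with a window that rose in WT (28.6%) and in 6 of the 28 others (21.4%), which were Eef2, Eef2k, Eif1b, Eif3f, Eif3k and Eif5a2. The motif was thus held by members of both kinds. Some genes have several windows, 6 for Eif5a and 2 for Eif4e, which gives them more bases to hold it. A match shows the letters and no binding.

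The first comparison asks how translation factor transcripts changed as WT naive T cells entered the iTreg culture. Of the 63 measured members, 27 rose and 3 fell, while 9.91% of the 26610 genes measured rose and 11.1% fell. The members' share was 42.9% for rising and 4.8% for falling. Their median log2 difference was 0.85, with quartiles of 0.15 and 1.52, and that of all genes was -0.10. Values above 0 were found in 52 of the 63, beside 11529 of the 26610 genes. In Nr4a-TKO, 28 members rose and 2 fell, beside 9.29% and 9.89% of 27182 genes, and the median was 0.78 beside -0.05. These counts are counts of transcripts relative to the rest of the array, and in bulk samples fewer cells of a type and less RNA per cell cannot be told apart.

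**Figure D1:**
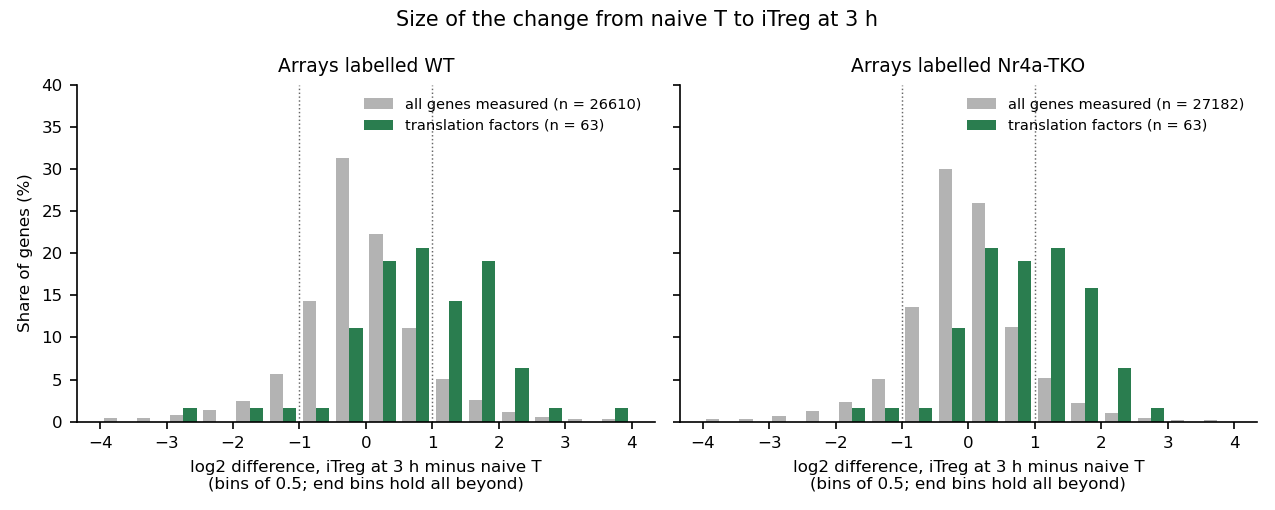
Share of genes (%) by log2 difference between iTreg at 3 h and naive T, in bins of 0.5, for the 63 measured translation factors (green) and for all genes measured (grey), on the arrays labelled WT (left) and Nr4a-TKO (right), with 1 array per condition. Dotted lines mark 2-fold. The translation factors sit to the right of all genes in both panels, with medians of 0.85 and 0.78.

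On their brightest probes, initiation factor genes rose more often than the genes of eEF1 and eEF2. Among the 41 members that are initiation factors or eIF5A, 25 rose and 0 fell in WT, with a median of 1.31. In Nr4a-TKO 24 rose and 0 fell, with a median of 1.20. The 2 eIF5A genes were counted here although eIF5A, as given below, acts on the ribosome at peptide bonds. Of these, 1 rose in WT and 2 rose in Nr4a-TKO. Of the 7 eEF1 and eEF2 genes, without Eef2k and Eef2kmt, 1 rose in each genotype, and their median was 0.16 in both. This contrast between groups of unequal size was not tested. The brightest genes of both groups, by level in WT naive T, stayed under 2-fold. Eef1a1, Eef1b2, Eef1d, Eef1g and Eef2 had log2 levels of 5.66 to 7.07 there. Eif1, Eif2s3x, Eif3e, Eif3h and Eif4a2 had 6.64, 4.80, 5.31, 4.92 and 6.06. These changed by 0.77, 0.75, 0.18, -0.03 and -0.39 in WT. Role and signal level were thus not separated. The 3 members that fell in WT were the eIF2α kinases Eif2ak2 and Eif2ak3 and the eIF4E relative Eif4e3. No 4E-BP gene fell, and Eif4ebp1 rose.

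**Figure D2:**
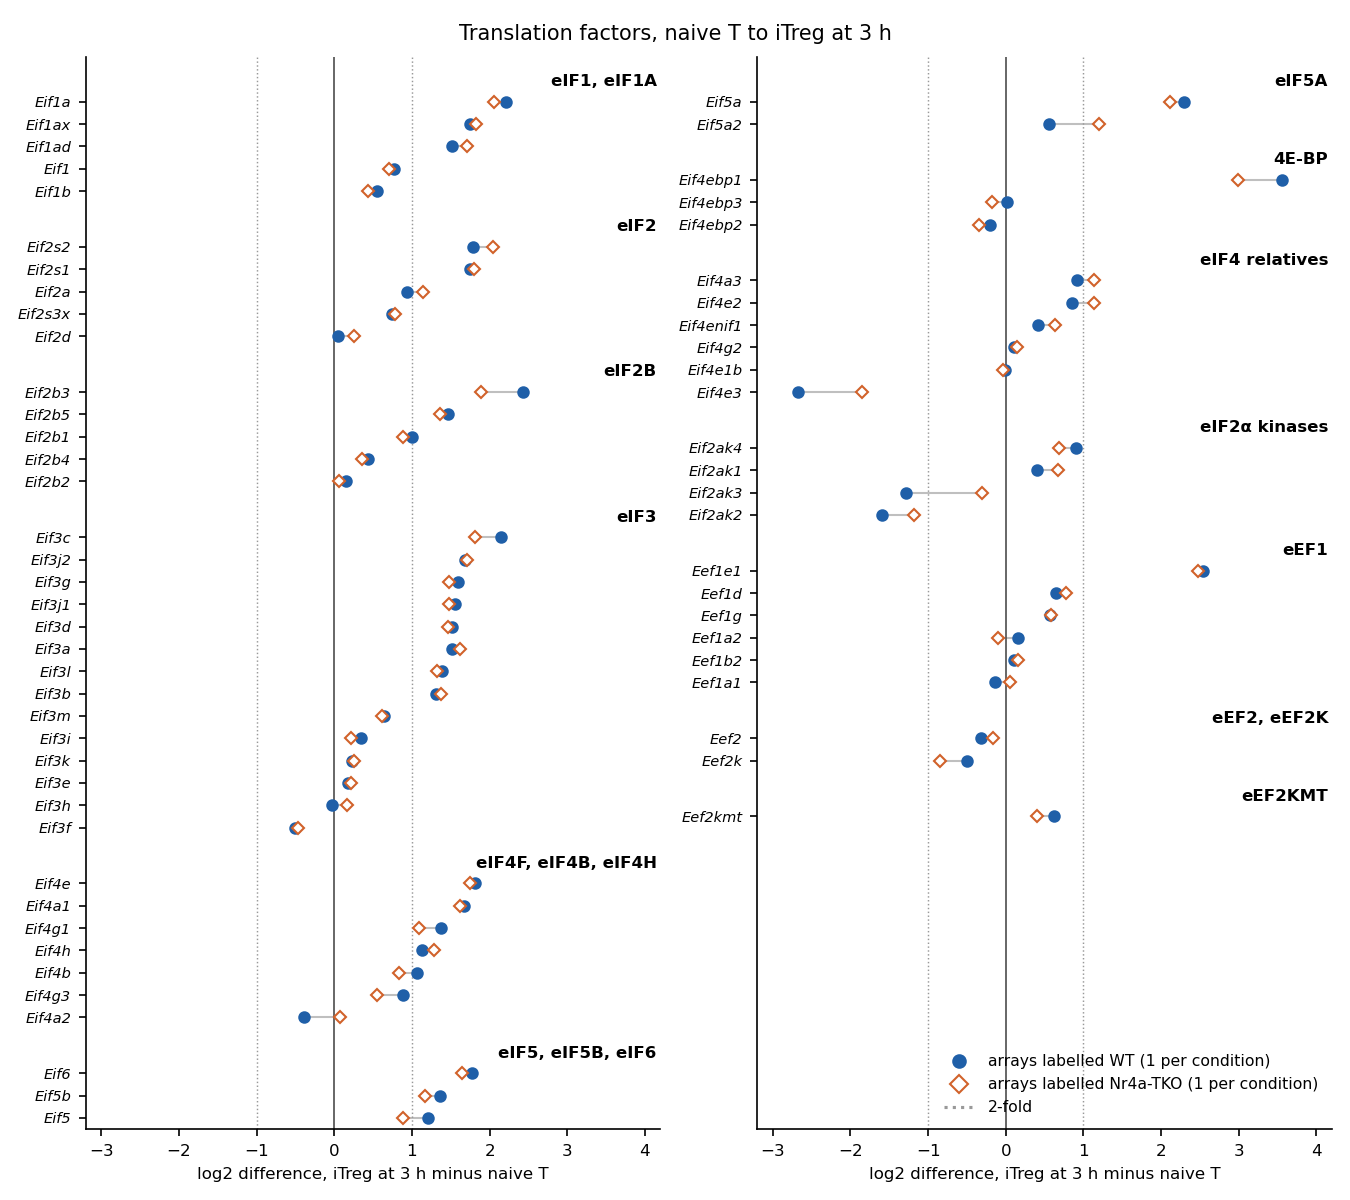
Log2 difference between iTreg at 3 h and naive T for each of the 63 measured members, grouped by role, on the arrays labelled WT (filled circles) and Nr4a-TKO (open diamonds), with 1 array per condition and no error bars. Dotted lines mark 2-fold. Circles and diamonds lie close together for most members, and the largest increase is Eif4ebp1, at 3.56 and 2.99.

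Of the 5 genes of eIF1, eIF1A and their relatives, 3 rose in each genotype. Eif1a, one of 2 genes here for the scanning factor eIF1A, went from 1.01 to 3.22 in WT and from 1.20 to 3.26 in Nr4a-TKO. Its X-linked counterpart Eif1ax went from 2.38 to 4.13 and from 2.27 to 4.10. Eif1ad, which encodes a protein with a domain like eIF1A, went from 2.64 to 4.16 and from 2.47 to 4.18. All 3 rose in both genotypes, by log2 differences between 1.52 and 2.21. For eIF1 itself, the gatekeeper of start codon choice, Eif1 and Eif1b differed by 0.77 and 0.55 in WT, under 2-fold, although the second Eif1 probe gave 1.14 in both genotypes.

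The core subunits of eIF2, which binds GTP and the initiator tRNA, moved in the same direction. Eif2s1, the alpha subunit that the stress kinases phosphorylate, went from 1.51 to 3.26 in WT and from 1.39 to 3.18 in Nr4a-TKO. Eif2s2, the beta subunit, went from 2.74 to 4.53 and from 2.50 to 4.54, while its dimmer probe gave 1.32 in WT and 0.51, under 2-fold, in Nr4a-TKO. Eif2s3x, the gamma subunit, differed by only 0.75 and 0.78 on its brightest probe, while its second probe well above background on all arrays gave 1.27 and 1.04. Eif2a, an alternative carrier of initiator tRNA that is distinct from the eIF2 subunits, went from 2.23 to 3.18 in WT and from 2.11 to 3.25 in Nr4a-TKO. Its log2 differences of 0.94 and 1.14 lay on either side of 2-fold. Eif2d was nearly level, at 0.05 and 0.26.

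eIF2B is the exchange factor that recharges eIF2 with GTP. Its subunit Eif2b3 had the largest increase in WT after Eif4ebp1 and Eef1e1, from -0.90 to 1.53 in WT and from -0.81 to 1.08 in Nr4a-TKO (probe at chr4:116731398-116731457 of mm9). All 3 Eif2b3 probes rose in both genotypes, by 2.16 to 2.85 in WT and 1.89 to 2.15 in Nr4a-TKO. Eif2b5, the catalytic subunit, went from -0.66 to 0.81 in WT and from -0.29 to 1.08 in Nr4a-TKO. Eif2b1 went from -0.43 to 0.57 and from -0.24 to 0.64, which is 2.01-fold in WT and under 2-fold in Nr4a-TKO, and its second probe was under 2-fold in both, at 0.80 and 0.85. Eif2b2 and Eif2b4 stayed under 2-fold in both, so the complex did not move as a unit.

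eIF3, the largest initiation factor, was split in the same way. Of its 14 genes, 8 rose and none fell in each genotype, and these were the same 8 genes, Eif3a, Eif3b, Eif3c, Eif3d, Eif3g, Eif3j1, Eif3j2 and Eif3l. The group median was 1.35 in both. Eif3c led, from 3.74 to 5.89 in WT and from 3.97 to 5.78 in Nr4a-TKO (chr7:133690426-133690485 of mm9), and its second probe rose by 1.91 and 2.03. Eif3a, the scaffold of the complex, went from 2.62 to 4.12 and from 2.54 to 4.16, although its 2 dimmer probes gave 1.07 and 0.42 in WT. The same gene thus stood above or below 2-fold depending on the probe.

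The remaining eIF3 increases were similar in size. Eif3b went from 2.57 to 3.87 in WT and from 2.50 to 3.87 in Nr4a-TKO. Eif3d, a subunit that can bind the cap, went from 2.71 to 4.23 and from 2.55 to 4.02. Its 2 dimmer probes, each well above background on 2 arrays, gave 0.31 and 0.93 in WT and -0.23 and 1.14 in Nr4a-TKO. The mean over Eif3d probes did not pass 2-fold in either genotype. Eif3g went from 3.10 to 4.69 and from 2.90 to 4.38. On their brightest probes, Eif3b, Eif3d and Eif3g lie in a narrow band, with log2 differences between 1.31 and 1.59 in WT. Eif3l went from 2.47 to 3.86 and from 2.50 to 3.82. Eif3j1 went from 0.60 to 2.16 and from 0.73 to 2.22. Eif3j2 went from 1.48 to 3.16 and from 1.37 to 3.08, but Eif3j1 and Eif3j2 are near-identical copies whose signals may be shared.

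The other 6 eIF3 genes stayed within 2-fold. Eif3m gave log2 differences of 0.64 (WT) and 0.61 (Nr4a-TKO), and Eif3e, Eif3i and Eif3k gave 0.18 to 0.34 and 0.21 to 0.26. Eif3h gave -0.03 and 0.17. The probe of Eif3h that was printed on 10 spots gave 0.01 with an SE of 0.03 over spots in WT. Eif3f was the single subunit below 0 in both genotypes, at -0.51 and -0.47. Of the octamer that forms the structural core of eIF3, therefore, Eif3a, Eif3c and Eif3l rose while Eif3e, Eif3f, Eif3h, Eif3k and Eif3m did not, a grouping that was made after the values were seen.

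**Figure D3:**
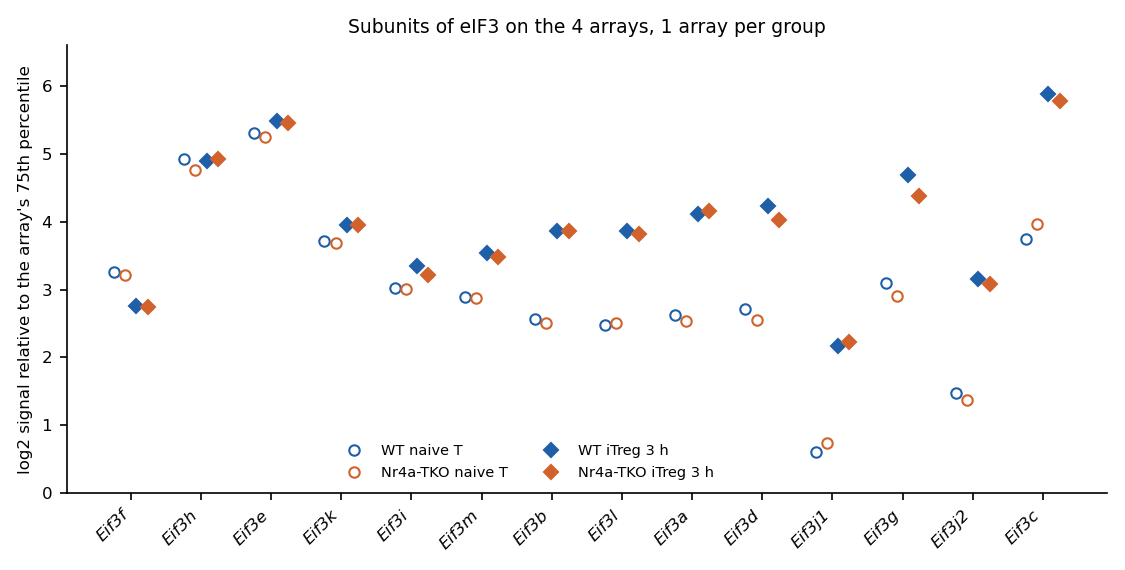
Log2 level of the 14 eIF3 genes on the 4 arrays, as log2 signal relative to the 75th percentile of each array, ordered by the change in WT. Open circles are naive T and filled diamonds iTreg at 3 h, blue for WT and orange for Nr4a-TKO, with 1 array per group. Levels of different genes are not compared, and from Eif3b to Eif3c on the right the 3 h values are more than 2-fold above naive T in both genotypes.

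In the cap-binding complex, Eif4e, the protein that grips the mRNA cap, went from 3.83 to 5.63 in WT and from 4.01 to 5.76 in Nr4a-TKO (chr3:138219236-138219295 of mm9). Its second probe well above background on all arrays rose by 1.36 and 1.14, while a dimmer probe, well above background on 3 arrays, gave -0.65 and -0.95. Eif4g1, the scaffold, went from 3.39 to 4.77 in WT and from 3.61 to 4.70 in Nr4a-TKO, with all 5 of its probes above 1 in both genotypes. Eif4g3, a second scaffold, went from 3.02 to 3.90 and from 2.82 to 3.37, under 2-fold. Eif4h, a cofactor of the helicase, went from -0.26 to 0.87 and from -0.50 to 0.78. On their brightest probes the cap-binding protein, 1 scaffold and 1 cofactor thus rose in both genotypes.

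The 2 eIF4A helicases of the complex behaved differently from each other. Eif4a1 went from 2.25 to 3.92 in WT and from 2.12 to 3.74 in Nr4a-TKO, log2 differences of 1.67 and 1.62. Eif4a2 had log2 levels of 6.06 and 5.67 in WT and 5.91 and 5.99 in Nr4a-TKO, differences of -0.39 and 0.08. Its other 2 probes gave -0.61 and -0.77 in WT and -0.33 and -0.49 in Nr4a-TKO, so none of the 3 approached the rise of Eif4a1. Eif4a3, a relative that works in the exon junction complex, went from 2.15 to 3.07 in WT and from 2.03 to 3.16 in Nr4a-TKO.

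For Eif4b, the other helicase cofactor, the 2 probes disagreed, and their first 30 bases are shown because the call rests on which of them is read. Both are on the plus strand of mm9.
Eif4b, brighter probe, chr15:101916459-101916965: tggatgttgctgatcaagcacaggataaag
Eif4b, other probe, chr15:101927509-101927568: gacataacttgggagatgtcttgagatgta
The brighter probe, a 60-base probe whose 2 ends lie further apart than that in the genome, went from 1.72 to 2.77 in WT and from 1.89 to 2.74 in Nr4a-TKO. The other went from 2.24 to 2.18 in WT and from 1.69 to 2.28 in Nr4a-TKO. Neither was dim on any of the 4 arrays, and the rise in WT of 1.06 was read by 1 probe while the other gave -0.06.

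The relatives of eIF4E went their own ways. Eif4e2, known as a cap-binding repressor, went from 2.16 to 3.00 in WT and from 1.72 to 2.84 in Nr4a-TKO, past 2-fold in Nr4a-TKO alone on this probe. Its other 2 probes were under 2-fold in both genotypes, at 0.83 and 0.54 in WT and 0.47 and 0.43 in Nr4a-TKO, and the mean over probes did not pass. Eif4e1b, a form known from oocytes, gave differences of -0.01 and -0.04. Eif4e3, which binds the cap in an atypical manner, fell more than any other member, from 0.00 to -2.67 in WT and from -0.23 to -2.08 in Nr4a-TKO. It is read by a single probe, well above background on all 4 arrays, and its first 30 bases are given with those of Eif4ebp1 because each gene, the furthest down and the furthest up, rests on 1 probe.
Eif4e3, chr6:99575493-99575552 of mm9, minus strand: tccacttgcattgctaaacaggaagccaaa
Eif4ebp1, chr8:28385887-28385946 of mm9, plus strand: cagcctccggagcacacccatctttcctta
Eif4g2, a scaffold without the cap-binding site, and Eif4enif1, which carries eIF4E into the nucleus, stayed under 2-fold at 0.11 to 0.64.

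The 4E-BPs block eIF4E until they are phosphorylated. Eif4ebp1 was the member with the largest change, from -2.31 to 1.26 in WT and from -2.21 to 0.78 in Nr4a-TKO, which is 11.8-fold and 7.97-fold. Eif4ebp2 went from -0.31 to -0.51 and from -0.37 to -0.71, and Eif4ebp3 differed by 0.01 and -0.18. One of the 3 repressors therefore rose with the factor it binds. Phosphorylation, which sets the activity of these proteins, was not measured.

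**Figure D4:**
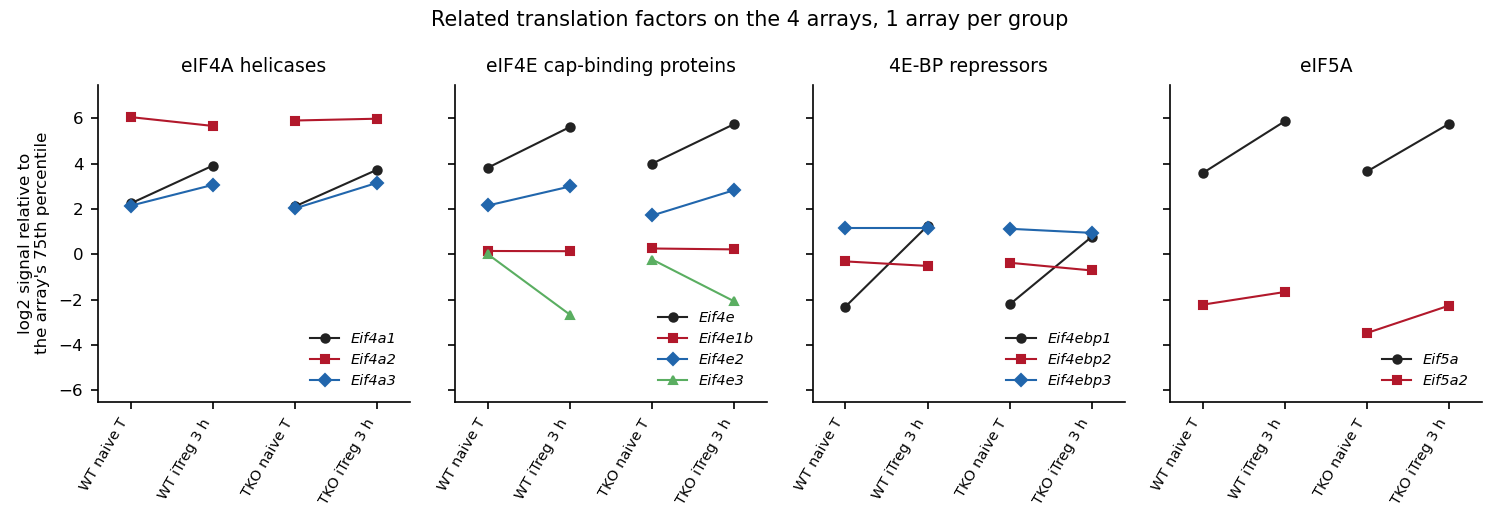
Log2 level, as log2 signal relative to the 75th percentile of each array, of the eIF4A, eIF4E, 4E-BP and eIF5A genes on the 4 arrays, with lines joining naive T to iTreg at 3 h of the same genotype (TKO stands for Nr4a-TKO) and 1 array per group. Levels of different genes are not compared. Eif4a1, Eif4e, Eif4ebp1 and Eif5a climb in both genotypes, Eif4e3 declines, and Eif4a2, Eif4e1b, Eif4ebp2 and Eif4ebp3 stay within 2-fold.

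The 3 factors of subunit joining all rose in WT, and 2 of them rose in Nr4a-TKO. Eif5, the GTPase activator that acts at the start codon, went from 3.91 to 5.12 in WT and from 4.19 to 5.08 in Nr4a-TKO. Eif5b, which joins the subunits, went from -0.24 to 1.12 and from -0.36 to 0.81. Eif6, which keeps the large subunit free until it is ready, went from 3.22 to 4.99 and from 3.26 to 4.90. Their log2 differences were 1.21 to 1.77 in WT and 0.89 to 1.64 in Nr4a-TKO, where Eif5 stayed under 2-fold.

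eIF5A carries the hypusine residue and helps the ribosome through difficult peptide bonds. Eif5a went from 3.59 to 5.88 in WT and from 3.66 to 5.77 in Nr4a-TKO, which is 4.9-fold and 4.33-fold, and its second probe rose by 2.63 and 2.29. Eif5a2, its less widely expressed copy, was dim, from -2.22 to -1.66 in WT and from -3.47 to -2.26 in Nr4a-TKO. The larger Eif5a2 change in Nr4a-TKO, 1.20 against 0.56, started from a lower naive T level. The rise in Nr4a-TKO did not pass 2-fold after normexp background correction, at 0.84 (offset 0) and 0.23 (offset 50).

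Of the 7 eEF1 and eEF2 genes, with eIF5A counted apart from them, 6 stayed within 2-fold in both genotypes. Eef1a1, which brings aminoacyl-tRNA to the ribosome, went from 6.97 to 6.83 in WT and from 6.89 to 6.95 in Nr4a-TKO, and with 9 or 10 spots per array the SE of each difference was 0.02. Eef1a2, the form known from muscle and neurons, went from -2.81 to -2.65 and from -3.08 to -3.18. Eef2, the translocase, went from 7.07 to 6.74 and from 7.0 to 6.83, and its 3 probes gave -0.16 to -0.32 in WT. No spot on any array was saturated, these bright probes included. The exchange subunits Eef1b2, Eef1d and Eef1g differed by 0.11, 0.65 and 0.57 in WT and 0.16, 0.77 and 0.58 in Nr4a-TKO, although 1 of the 3 Eef1d probes gave 1.27 and 1.02.

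Eef1e1 was the exception by name. It went from 0.59 to 3.13 in WT and from 0.52 to 3.00 in Nr4a-TKO (chr13:38738078-38738137 of mm9), while its second, dimmer probe gave 0.03 and 0.02. Its product is known as a scaffold of the multi-tRNA synthetase complex and not as a factor of the elongation cycle. Without it, the remaining 6 eEF1 and eEF2 genes held 0 that rose and 0 that fell in either genotype, with medians of 0.14 and 0.11. Eef2k, the kinase that inactivates eEF2, went from 0.84 to 0.34 in WT and from 1.13 to 0.27 in Nr4a-TKO, and Eef2kmt, which methylates eEF2, differed by 0.62 and 0.40.

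The 4 eIF2α kinases divided. Eif2ak2 (PKR, which senses double-stranded RNA) fell from 1.24 to -0.35 in WT and from 1.22 to 0.04 in Nr4a-TKO. Eif2ak3 (PERK, of the endoplasmic reticulum) went from -2.12 to -3.40 in WT and from -1.90 to -2.21 in Nr4a-TKO, a fall of more than 2-fold in WT alone, which became -0.27 after normexp with an offset of 50. Its other probe, well above background on 2 arrays, gave -1.38 and -0.81. Eif2ak1 (HRI, which responds to haem) went from 2.54 to 2.94 and from 2.44 to 3.11. Eif2ak4 (GCN2, which responds to uncharged tRNA) went from -1.78 to -0.88 and from -1.76 to -1.08. On their brightest probes none of the 4 rose past 2-fold. A dimmer Eif2ak1 probe gave 1.35 in WT and 0.64 in Nr4a-TKO, and a dimmer Eif2ak4 probe 0.63 and 1.12.

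Where a member had at least 2 probes well above background on all arrays, the probes could be set against each other as differences. This was so for 34 members. All probes of a gene pointed in 1 direction in 29 of them (85.3%) for the change in WT and in 31 (91.2%) for the change in Nr4a-TKO, beside 68.9% and 68.1% of the 6640 genes with as many probes. For the differences between genotypes the corresponding numbers were 13 (38.2%) in naive T and 16 (47.1%) at 3 h, beside 46.0% and 49.7% of those genes.

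The next comparison asks whether these changes differed between the arrays labelled WT and Nr4a-TKO. Across members, 24 rose in both genotypes, 3 in WT alone (Eif2b1, Eif4b and Eif5) and 4 in Nr4a-TKO alone (Eif2a, Eif4a3, Eif4e2 and Eif5a2). In the genotype where they did not pass, their log2 differences were 0.56 for Eif5a2 and 0.84 to 0.94 for the other 6. The direction was shared by 58 of 63 members. The corresponding shares of all genes are not given, so these counts do not set the members apart. The difference of the 2 changes, Nr4a-TKO minus WT, had a median of -0.04 over the members, beside 0.03 over 24715 genes, and ranged from -0.57 for Eif4ebp1 to 0.97 for Eif2ak3. Eif4e3 at 0.82, Eif5a2 at 0.65 and Eif2b3 at -0.54 were also past 0.5 in size.

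At the naive T stage, no member (0) was higher in Nr4a-TKO by more than 2-fold and 1 was lower, beside 2.73% and 2.57% of 26454 genes. The 1 was Eif5a2, at -2.22 in WT and -3.47 in Nr4a-TKO, and its difference of -1.24 became -0.73 with normexp at an offset of 0 and -0.20 at 50. The median was -0.03, and 26 members were above 0 and 37 below, beside 12627 and 13827 of all genes. At 3 h, 1 member was higher by more than 2-fold and 0 were lower, beside 2.74% and 2.63% of 26928 genes, with a median of -0.02. That 1 was Eif2ak3, at -3.40 in WT and -2.21 in Nr4a-TKO, and its difference of 1.19 became 0.28 with normexp at an offset of 50. The other Eif2ak3 probe was dim on both arrays at 3 h, at -3.91 in WT and -3.84 in Nr4a-TKO. This difference was thus read by 1 probe. With so few members past 2-fold, the members' shares of at most 1.6% are close to those of all genes.

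Smaller differences between genotypes are given for members with several probes, chosen after the values were seen because their probes shared a direction. Eif4g3 was lower in Nr4a-TKO at 3 h on all 5 of its probes, by log2 differences of -0.33 to -0.55, and in naive T they gave -0.67 to 0.01. Eif2b3 was lower at 3 h on all 3, by -0.25 to -0.45. Eif4a2 was higher on all 3, by 0.10 to 0.32, and Eef2 on all 3, by 0.09 to 0.26. Of the 14 members with at least 3 such probes, 6 (42.9%) had all probes in 1 direction at 3 h, beside 33.6% of 2443 genes with at least 3, and this contrast was not tested. Probes of a gene share their array and are not replicates of a genotype. Eif4ebp1 and Eif4e3, with 1 probe each, differed at 3 h by -0.48 and 0.59.

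**Figure D5:**
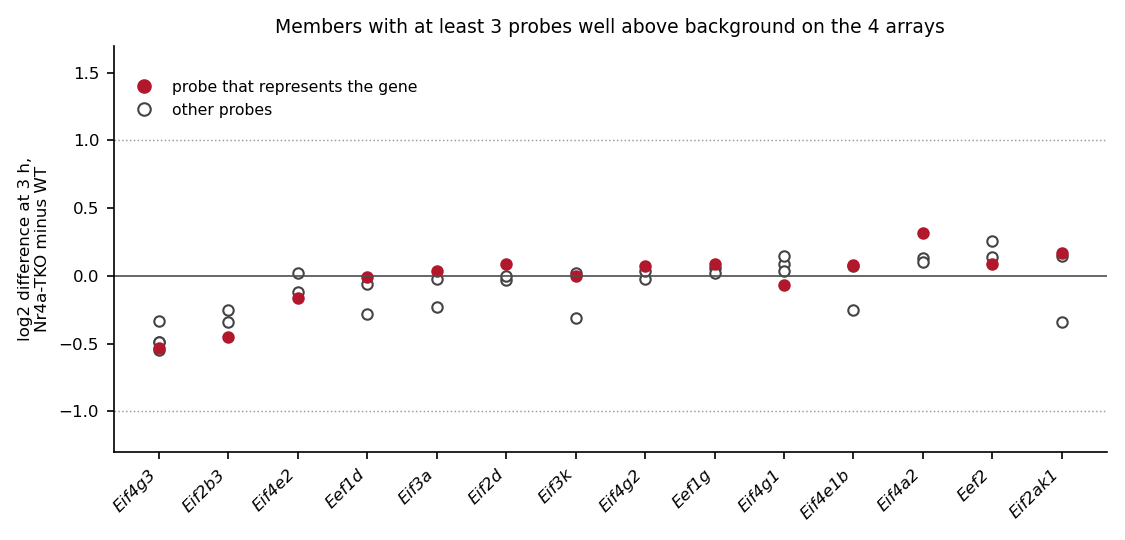
Log2 difference at 3 h, Nr4a-TKO minus WT, for each probe of the 14 members with at least 3 probes well above background on the 4 arrays, with 1 array per genotype and dotted lines at 2-fold. Red points are the probe that represents the gene and open points its other probes, some of which overlap. All points of Eif4g3 and Eif2b3 lie below 0 and all points of Eif4a2 and Eef2 above it, and none reaches 2-fold.

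Markers of other cells differed between the arrays. The B cell markers Cd79a, Cd79b and Ms4a1 were well above background on every array. At 3 h, Nr4a-TKO minus WT gave log2 differences of 1.22 for Cd79a, 0.98 for Cd79b and 0.05 for Ms4a1, and in naive T it gave 0.68, -0.56 and 0.08. Cd79a was thus more than 2-fold higher on the Nr4a-TKO array at 3 h. From naive T to 3 h, the log2 differences of Cd79b were -2.92 (WT) and -1.38 (Nr4a-TKO), and those of Cd79a -1.0 and -0.47. Of the erythroid markers, Alas2 was higher by 1.13 in Nr4a-TKO at 3 h, Hba-a1 differed by 0.26, and Hbb-b1 was well above background on no array. The CD8 genes Cd8a and Cd8b1 were well above background on every array and gave -0.70 and -0.37 at 3 h. Their summed linear level ranged from 0.77 to 1.57 over the 4 arrays. The myeloid markers Itgam, Csf1r and Cd68 were well above background on every array and Lyz2 on 3, and between genotypes they differed by -0.24 to 0.12 in naive T and -0.15 to 0.07 at 3 h. The summed linear level of the 4 T cell markers, relative to the 75th percentile of the array, was 174 and 171 in naive T and 117 and 97.3 at 3 h. That of the 4 myeloid markers was 476 and 492 in naive T and 393 and 409 at 3 h. Among these, Itgam had log2 levels of 8.51 to 8.84. Such sums over different probes do not measure numbers of cells. The part of such shifts in the members' values was not tested.

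Other genes of the cytosolic translation pathway, were taken from a list of 35 that does not overlap the members. In WT 11 rose (31.4%, beside 9.91% of all genes) and 0 fell, with a median of 0.59. In Nr4a-TKO 7 of 34 measured rose (20.6%, beside 9.29%) and 0 fell, with a median of 0.48. The difference between this list and the members was not tested. The ribosome recycling ATPase Abce1 was up by 1.81 in WT and 1.85 in Nr4a-TKO. The termination factor Etf1 rose by 1.93 and 2.20, and the RNA-binding proteins Larp1 and Larp4 rose by 1.72 and 2.15 in WT. Enzymes that modify the factors above were among them. Dph1 and Dph2, which start the diphthamide of eEF2, rose by 1.59 and 1.62 in WT. The other diphthamide genes did not pass 2-fold in WT, at 0.59 for Dph3, -0.70 for Dph5, 0.90 for Dph6 and 0.50 for Dph7. Dhps and Dohh, which make the hypusine of eIF5A, differed by 0.70 and 0.98 in WT. Pdcd4, an inhibitor of eIF4A, gave -0.18 in WT and -0.02 in Nr4a-TKO. The kinases Mknk1 and Mknk2, which phosphorylate eIF4E, gave 0.08 and -0.69 in WT.

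Mitochondria use their own translation factors, and 9 of the 10 listed were measured. In WT 4 of them rose (44.4%, beside 42.9% of the members and 9.91% of all genes). These were Gfm1, Tufm, Tsfm and Mrrf, by 1.06 to 1.84, and the median over the 9 was 0.05. In Nr4a-TKO only Gfm1 rose, by 1.11 (11.1%, beside 44.4% of the members and 9.29% of all genes), and the median was 0.11. Mrrf and Mtif3 were more than 2-fold higher in Nr4a-TKO than in WT at the naive T stage, by 1.08 and 1.1 on the log2 scale. The members had the higher medians, 0.85 in WT and 0.78 in Nr4a-TKO, while the shares that rose in WT were similar. These differences between lists were not tested.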

How the data were processed

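RNA from 4 groups was hybridised to 4 Agilent arrays of 1 slide, 1 array per group, so their number limits the precision. The authors deposited the output of Agilent Feature Extraction 11.5.1.1, with a processed intensity per spot (background-subtracted) and flags, on mm9. Log2 values of the same arrays were deposited too. Their methods name RMA, but these values match log2 processed intensity scaled to the 75th percentile of its array (SD of the difference 0.0029 over 56305 probes with 1 spot), and that scaling was used here. The arrays held 59305 non-control spots and 56605 probes each, of which 64.9 to 67.6% were well above background. Control spots and 115 to 160 spots per array with an outlier flag were left out, and no spot was saturated.

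Spots of a probe were averaged, and each gene was read by its brightest probe on average. A pair of arrays was compared unless both were dim (not well above background), and a dim array was raised to the lowest signal well above background on it. The threshold was 2-fold. No model was fitted, since no group has a replicate. No paired analysis was possible because each group has 1 array.

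Members, role groups and other lists were chosen with earlier results of these data known. Members past 2-fold in any comparison and a fixed set of main factors are given by array, and the others by range. Alternatives were normexp background correction with an offset of 0 or 50 and quantile normalization, quantile normalization or median centring of the processed intensity, the deposited table, the mean over probes, a stricter or no filter on dim probes, flagged spots kept, thresholds of 1.5-fold and 3-fold, and leaving out the Argonaute name. The counting was tested on simulated data. R 4.3.3, limma 3.58.1, Python 3.11.15, pandas 2.3.3, numpy 2.4.6 and matplotlib 3.10.9 were used. Promoter windows are RefSeq sequences of GRCm38.p6, another build than the probe positions, and no position was carried between them. The exon or UTR under each probe was not determined here, since no annotation of mm9 was used. A further marker gene is not reported here.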

Additional observations from a re-analysis of the deposited data

Results flagged for a closer look

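Eif4a2 was set apart because its level after 3 h of iTreg culture moved in opposite directions in the 2 genotypes, -0.39 in WT and 0.08 in Nr4a-TKO. The difference was not tested, and 0.08 is smaller than the median SD between probes of a member, 0.19 for the change in Nr4a-TKO. Both other Eif4a2 probes were below 0 in both genotypes, at -0.61 and -0.77 in WT and -0.33 and -0.49 in Nr4a-TKO, so the opposite directions were read by 1 probe of 3. The Nr4a-TKO value of that probe was also below 0 with other normalizations, at -0.10 (normexp, offset 0), -0.09 (offset 50) and -0.08 (quantile normalization of the processed intensity), with -0.50 in WT in each.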

How the results depend on the processing

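Of 61 values of named members past 2-fold, all kept their direction under each of 9 alternatives of processing. Eif2b1 in WT, at 2.01-fold, was counted above as a rise but was not among these 61. Its log2 difference became 0.98 with normexp (offset 0). All 61 also stayed past 2-fold with median centring, the deposited table, both filters on dim probes and outlier spots kept. Of the 61, 56 did with quantile normalization of the processed intensity, 54 with normexp (offset 0) and with the mean over probes, and 43 with the offset of 50. Of all members past 2-fold in WT, 89.7% were higher with the deposited table and 90.0% in the main setting. A call outside the 61 thus moved there. The members' median change was 0.66 in WT and 0.66 in Nr4a-TKO with offset 0, 0.60 and 0.56 with offset 50, 0.71 and 0.64 with quantile normalization, and 0.72 in Nr4a-TKO with the mean over probes. With offset 50 the counts of members that fell in Nr4a-TKO, were lower in naive Nr4a-TKO or were higher in Nr4a-TKO at 3 h were 0, 0 and 0. Over all genes they were 880 of 27167, 98 of 26451 and 82 of 26913. With offset 0 the second of these member counts was 0, beside 453 of 26446 genes. At 3-fold, 14 members rose in WT, 15 rose and 1 fell in Nr4a-TKO, and 0 were lower in naive Nr4a-TKO or higher in Nr4a-TKO at 3 h. Of all genes at 3-fold, 1137 of 26610 rose in WT, and 961 rose and 1163 fell of 27182 in Nr4a-TKO. In naive Nr4a-TKO 265 of 26454 were lower, and at 3 h 260 of 26928 were higher. At 1.5-fold, 2 members were higher and 1 lower at 3 h, beside 2180 and 1842 of 26928 genes. An added offset shrinks the differences of dim probes by its construction, and the cause of the other shifts was not tested. Without a filter on dim probes, the median of all genes was -0.19 for the change in WT. Leaving out the Argonaute name moved no count. Each group has 1 array, so the spread between mice is unknown, and dim genes such as Eif5a2 and Eif2ak3 are read least firmly.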
